A study of Mus musculus with 6 samples.

Results

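The genes described here belong to the families that write, erase and read lysine acetylation on histones, including members that act on other substrates. They are 36 genes, chosen by name from the deposited expression table of 49315 genes: 12 acetyltransferases and coactivators (writers), 18 deacetylases (erasers), 4 scaffold subunits of corepressor complexes, and the bromodomain readers Brd2 and Brd3. All 36 were found in the table, and all 36 passed the filter of at least 1 TPM in at least 3 libraries. TPM scales a gene's reads to its length and to the library total. RNA came from mouse embryonic fibroblasts, a mixed mesenchymal population grown out of E13.5 embryos. Wild-type cells (Acvr1+/+) were compared with cells heterozygous for the mutant allele (Acvr1R206H/+, called R206H here), with 3 libraries a genotype, described as biological replicates. All cells were at passage 0 and had been cultured for 2 days in DMEM with fetal bovine serum, and no other allele or agent is named. The labels do not say whether each library came from a separate embryo, so p-values measure the spread between these libraries. The Acvr1 protein, ALK2, is a receptor kinase that answers BMP ligands, and R206H is the usual cause of fibrodysplasia ossificans progressiva (FOP), where muscle and connective tissue turn to bone.

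Acetyltransferases move the acetyl group of acetyl-CoA onto lysines of histone tails, which neutralizes their charge and creates a docking site for bromodomains. Deacetylases remove it. The HDAC proteins of classes I, II and IV use zinc for this, and the sirtuins consume NAD+. BET proteins such as Brd2 and Brd3 hold acetylated histones through paired bromodomains and help recruit the transcription machinery. In skeletal lineages, SMAD proteins activated by BMP receptors recruit the acetyltransferases p300 and CBP, and several deacetylases, among them Hdac3, Hdac4 and Hdac7, are known to bind and restrain the osteoblast factor Runx2.

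The estimated depth was 17500000 to 24600000 reads a library, and each member rested on 57 to 7083 reads in a library. On the first principal component of all genes tested (40.8% of the variance), wild type lay at -29.1 to -18.0. R206H lay at 7.24, 20.7 and 39.5 there, with library 3 the farthest out. Wild-type library 1 stood apart from the others on the second component (19.3%), at 34.1 against -16.3 to 4.84. Acvr1 itself was at 34.7 ± 1.012 TPM in wild type and 44.4 ± 2.69 in R206H (SD, n = 3, limma adjusted p = 0.0511), and the exact two-sided permutation p of 0.1 is the smallest that 3 against 3 allows. The gene's level is no check of the genotype labels, because a point mutation is not read by it. The 10 fibroblast markers were all measured, and their summed level was 7173 to 9340 TPM in wild type and 10939 to 13504 in R206H, with 7 higher at an unadjusted limma p under 0.05, none past the adjusted threshold and a median log2 difference of 0.89. The summed level of 10 epithelial markers was 544 to 638 TPM in wild type and 197 to 399 in R206H, with all 10 lower at an unadjusted limma p under 0.05 and 2 past the adjusted threshold. That of 10 proliferation genes was 1407 to 1589 TPM in wild type and 1284 to 1348 in R206H, with 6 lower at an unadjusted p under 0.05 and none past the adjusted threshold. Endothelial markers summed to 18.6 to 35.5 TPM in wild type and 18.0 to 23.9 in R206H, macrophage markers to 57.9 to 92.1 and 47.4 to 106.5, skeletal muscle markers to 441.8 to 628.1 and 400.5 to 704.1, and neural markers to 63.6 to 75.1 and 88.7 to 104.0, with 1 neural marker past the adjusted threshold in each direction. Erythroid markers summed to at most 0.468 TPM in a library, with the globin genes Hba-a1 and Hbb-bs at 0 in all of them, as was 1 of the rows named Itgam among the macrophage markers. The part of these other cell types and of proliferation in the results below was not tested. In bulk RNA, fewer cells of a type and less RNA per cell cannot be told apart.

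Promoter sequences are shown for 3 members: Kat2a and Kat2b, the pair of related acetyltransferase genes whose values differed in opposite directions between the genotypes, and Hdac6, which like Kat2a passed the threshold when libraries were weighted. They are RefSeq sequences (GRCm38.p6) of the bases before the transcript start, 5′ to 3′ on the gene's strand. Kat2a lies on the minus strand (chr11:100712468-100712717), Kat2b on the plus strand (chr17:53566721-53566860, shortened to the 140 bases before the annotated first exon) and Hdac6 on the minus strand (chrX:7947890-7948139). The RefSeq start of Kat2b lies 110 bases inside the annotated gene, and the bases between are left out. Its window is thus farther from the RefSeq start than those of Kat2a and Hdac6. Capitals mark GGGCGG, a GC box bound by Sp and Klf factors, and the short SMAD-binding element GTCTG, each searched on both strands (CCGCCC and CAGAC on the other).
Kat2a: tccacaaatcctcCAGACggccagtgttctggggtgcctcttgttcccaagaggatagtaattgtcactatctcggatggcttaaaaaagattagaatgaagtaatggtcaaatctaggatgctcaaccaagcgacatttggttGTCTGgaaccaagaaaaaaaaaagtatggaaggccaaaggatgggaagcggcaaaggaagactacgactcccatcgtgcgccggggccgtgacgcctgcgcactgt
Kat2b: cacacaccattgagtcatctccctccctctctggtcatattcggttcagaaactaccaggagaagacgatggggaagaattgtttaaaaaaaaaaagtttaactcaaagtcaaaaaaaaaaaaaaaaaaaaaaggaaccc
Hdac6: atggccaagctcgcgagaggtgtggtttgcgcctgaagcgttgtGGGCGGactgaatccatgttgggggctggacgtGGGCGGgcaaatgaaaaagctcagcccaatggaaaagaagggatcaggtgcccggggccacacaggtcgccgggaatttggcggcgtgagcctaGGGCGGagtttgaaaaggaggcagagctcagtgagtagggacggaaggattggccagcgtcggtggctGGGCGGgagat

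The 3 windows differ in composition. Hdac6 has 4 GC boxes and 61.2% G and C, Kat2a has 2 SMAD-binding elements and 48.8%, and the shorter Kat2b window has neither motif and 35.7%. A promoter was matched for 30 of the 36 members, with 44 windows of 250 bases in all. GGGCGG was in 61.4% of these 44 windows and in 32.7% of all 32851 promoters, and GTCTG in 43.2% and 42.2%. The palindrome GGCGCC, a GC-rich element that BMP-activated SMADs can bind, was in 18.2% of the members' windows and 9.59% of all promoters. The 8 members with that palindrome were Ep300, Crebbp, Kat5, Hdac4, Hdac11, Sirt1, Sirt2 and Sirt3. Also searched were CCGGAA, in 22.73% of the members' windows and 12.03% of all promoters, and CACGTG, in 4.545% and 6.021%. All promoters were not matched to the members' windows for G and C or for expression, and the cause of these shares was not tested. These matches are letters in a window and not measured binding.

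None of the 36 members passed the threshold between the genotypes, a Benjamini-Hochberg adjusted limma p of 0.05, which 2.04% of the 14818 genes tested did, 1.26% higher and 0.79% lower in R206H. At an unadjusted limma p under 0.05 there were 9 members, 8 higher and 1 lower in R206H, which is 25% of them against 26.1% of all genes. The higher ones were Kat2b, Ep300, Hdac1, Hdac4, Hdac6, Hdac8, Sirt4 and Sirt6, and the lower one was Kat2a. limma voom on reads rebuilt from the TPM values called 1 member, Kat2a, where it called 8.68% of all genes. limma with library weights called 2, Kat2a and Hdac6, where it called 12.9% of all genes. The count of 9 depended on single libraries: it was 2 without wild-type library 2, 2 without wild-type library 3, 3 without R206H library 3 and 10 without wild-type library 1. Differences are given below on the log2(TPM + 1) scale, R206H minus wild type. The added 1 shrinks the differences of weakly expressed genes.

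The differences were small and mostly upward. Of the 36 estimates, 30 were above 0, as were 53.6% of those of all genes, and the median was 0.11 against 0.02. With median-of-ratios scaling 26 were above 0, and with quantile normalization 24, with 49.8% and 48.5% of all genes. The 95% limma interval lay within a 1.5-fold difference either way for 30 members, or 83.3%, against 59.7% of all genes tested. The other 6 were Kat2b, Kat6b, Hdac8, Hdac11, Sirt4 and Sirt5, whose intervals reached past 1.5-fold upward. The share within 1.5-fold was 88.6% for the 140 tested genes that work with the members, described below. The median standard error was 0.0901 for the members and 0.120 for all genes. On this scale the intervals of weakly expressed members such as Hdac9 and Sirt3 are narrower than they would be as ratios of TPM. The groups did not overlap in 10 members, 9 with R206H above and 1 below, against 32.9% of all genes in either direction, 17.9% above and 15.0% below.

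**Figure D1:**
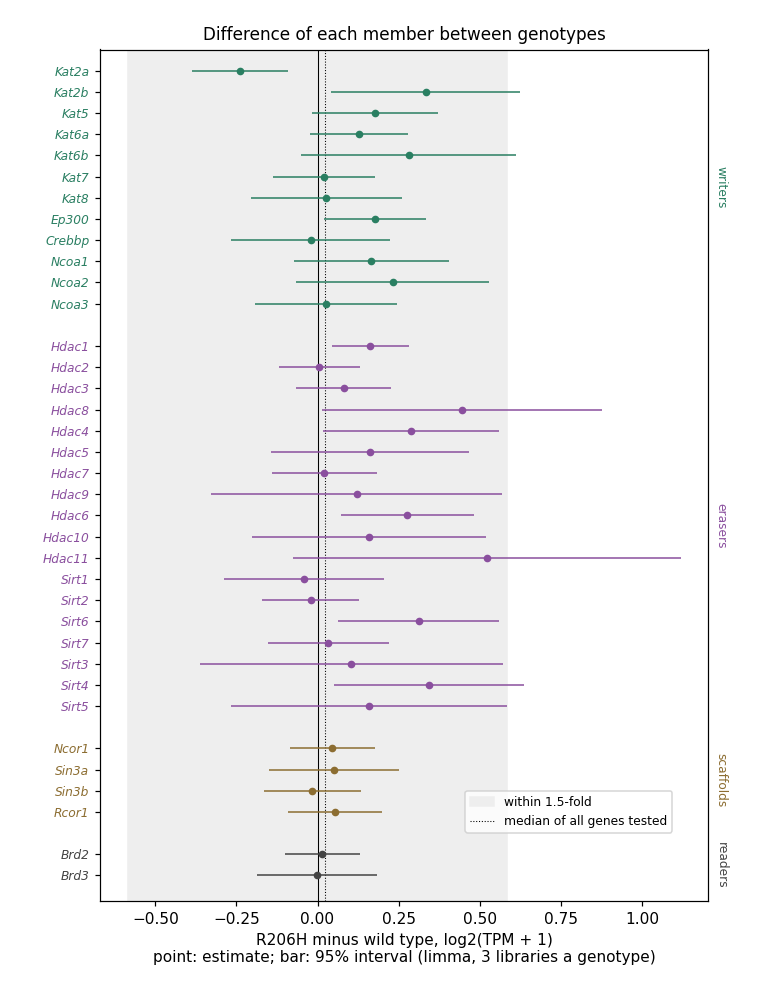
Each point is the difference of 1 member between R206H and wild type in log2(TPM + 1), and each bar its 95% limma interval from 3 libraries a genotype, coloured by class. The shaded band is a 1.5-fold difference either way, the dotted line the median of all genes tested, 0.02; Kat2a is the only member whose whole interval lies below 0, and the intervals of Brd2, Brd3 and the 4 scaffolds are centred near 0.

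Among the writers, the clearest contrast was between the closely related Kat2a and Kat2b. Kat2a, which encodes GCN5, the catalytic subunit of the SAGA coactivator complex (ENSMUSG00000020918, chromosome 11, 100704746 to 100712465, GRCm38), was at 82.8, 78.2 and 81.2 TPM in the 3 wild-type libraries, numbered 1 to 3, and at 72.6, 64.3 and 68.1 TPM in the 3 of R206H, in the same order as all values below. All R206H libraries lay below all wild-type libraries. The log2 difference was -0.24 (SE 0.0627, 95% interval -0.39 to -0.09), a mean TPM ratio of 0.846, and it did not pass with limma (adjusted p = 0.0801). It did with limma voom (adjusted p = 0.0476) and with library weights (adjusted p = 0.0337), and the adjusted p ran from 0.0337 to 0.231 over all alternatives. Kat2b encodes PCAF, the alternative catalytic subunit in the same complexes (ENSMUSG00000000708, chromosome 17, 53566861 to 53672720). Its level was 11.4, 9.26 and 8.98 TPM in wild type and 11.5, 12.5 and 14.1 TPM in R206H. The groups did not overlap, but wild-type library 1 and R206H library 1 were nearly equal, and the log2 difference of 0.33 (SE 0.124, 95% interval 0.04 to 0.63) did not pass with limma (adjusted p = 0.152).

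Because a ratio of TPM values within a library does not depend on the library total, the pair was also set side by side as a ratio, chosen after its values were seen and given with no test. Kat2b was 0.137, 0.118 and 0.111 of Kat2a in wild type and 0.158, 0.194 and 0.206 in R206H. The mean ratio was 0.122 ± 0.0137 in wild type and 0.186 ± 0.0253 in R206H (SD, n = 3), and every R206H library was above every wild-type one. Kat2a still held most of the pair's transcripts in all libraries. As a share of the summed TPM of the 12 writers, Kat2a took 24.3% ± 0.46 in wild type and 19.96% ± 1.602 in R206H.

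p300 and CBP, encoded by Ep300 and Crebbp, are large coactivators that acetylate histone H3 at enhancers and bind SMADs. Ep300 was at 25.5, 23.9 and 23.3 TPM in wild type and 27.0, 27.6 and 28.01 TPM in R206H. The R206H libraries lay above the wild-type ones by a narrow margin, with a log2 difference of 0.18 (SE 0.0668, limma adjusted p = 0.157). Crebbp was at 19.96, 15.7 and 16.8 TPM in wild type and 16.3, 17.8 and 17.3 TPM in R206H. These groups overlapped, and wild-type library 1 was the highest of the 6. The log2 difference of Crebbp was -0.02 (95% interval -0.27 to 0.22), and it was 0.07 without wild-type library 1. Crebbp was 0.720 ± 0.0646 of Ep300 in wild type and 0.622 ± 0.0219 in R206H, with no overlap between the groups. The margin was narrow, with the lowest wild-type ratio at 0.654 and the highest R206H ratio at 0.646, both in library 2.

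The 5 MYST family members had estimates from 0.02 to 0.28, and none had an unadjusted limma p under 0.05. Kat6b, which encodes the acetyltransferase MORF, was at 6.77, 4.70 and 5.76 TPM in wild type and 6.91, 7.16 and 7.31 TPM in R206H. Its paralog Kat6a, encoding MOZ, was at 37.6, 36.1 and 37.8 TPM in wild type and 38.8, 40.6 and 42.9 TPM in R206H. In both genes the R206H libraries lay above the wild-type ones, without passing the threshold (limma adjusted p = 0.256 for Kat6b and 0.254 for Kat6a). Kat5, the catalytic subunit TIP60 of the NuA4 complex, was at 50.8 ± 2.92 TPM in wild type and 57.7 ± 5.27 in R206H, with overlapping groups. Of the exon bases of Kat5, 12.1% also belong to exons of Rnaseh2c on the opposite strand (mean 70.8 TPM), and the strand setting of the counting is not given in the sources used here. Kat7, encoding HBO1, and Kat8, encoding MOF, which acetylates histone H4 at lysine 16, had log2 differences of 0.02 and 0.03. The p160 coactivators Ncoa1, Ncoa2 and Ncoa3 bind nuclear receptors and bring in p300 and CBP. Their levels were 8.70 to 17.9 TPM as wild-type means and 10.4 to 18.2 TPM as R206H means, and the groups overlapped in all 3. Ncoa3 shares 154 exon bases with Sulf2 on the opposite strand (mean 188.5 TPM), so its level too is uncertain without the strand setting.

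**Figure D2:**
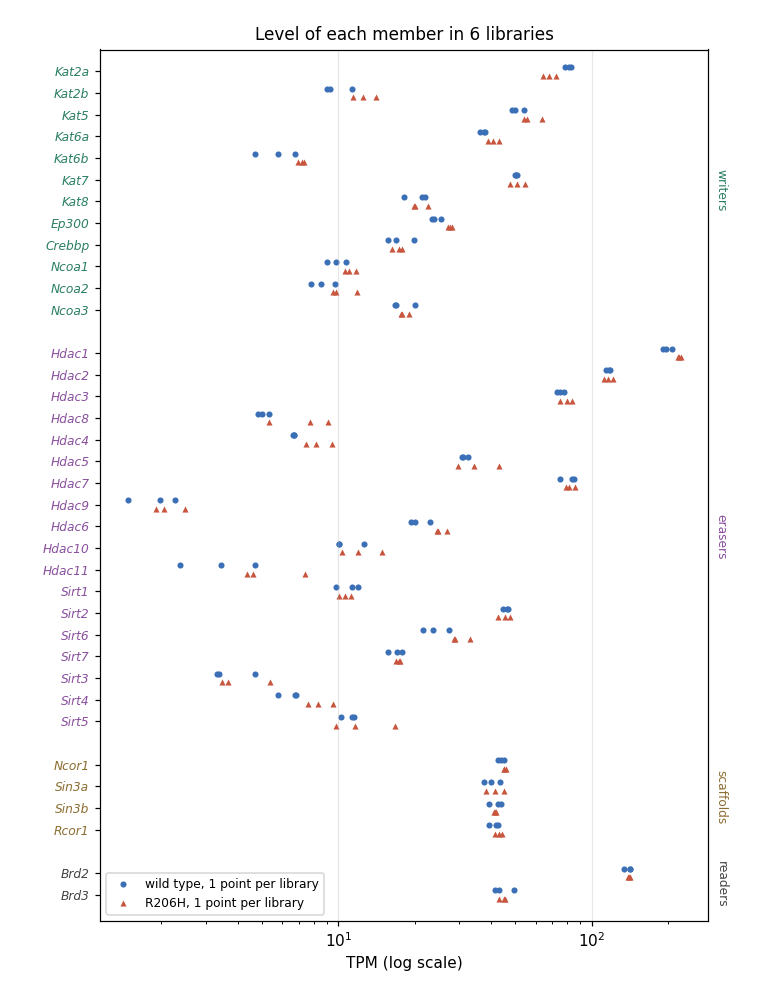
Each row is 1 member, each circle a wild-type library and each triangle an R206H library, placed by TPM on a log axis. Levels run from 1.47 TPM for Hdac9 to 225 TPM for Hdac1, and for most members the distance between genotypes is small beside the distance between genes.

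The class I enzymes Hdac1, Hdac2 and Hdac3 are the catalytic subunits of the nuclear corepressor complexes, and Hdac1 and Hdac2 had the highest levels of the erasers. Hdac1 (ENSMUSG00000028800, chromosome 4, 129516104 to 129542713) had the highest level of all 36 members, at 196, 207 and 191 TPM in wild type and 218, 225 and 222 TPM in R206H. The R206H libraries were all above the wild-type ones, by a ratio of 1.12. Its log2 difference of 0.16 (SE 0.0503, 95% interval 0.04 to 0.28) did not pass with limma (adjusted p = 0.108). Hdac2, which pairs with Hdac1 in the same complexes, was at 117, 114 and 118 TPM in wild type and 116, 122 and 112 TPM in R206H. The groups overlapped, and the 95% interval of the log2 difference, -0.12 to 0.13, bounds it more tightly than that of most members. Hdac2 was 0.587 ± 0.0341 of Hdac1 in wild type and 0.526 ± 0.0194 in R206H, with no overlap between the groups. The margin was narrow, with the lowest wild-type ratio at 0.549 and the highest R206H ratio at 0.542, both in library 2. Hdac3, the enzyme of the NCoR and SMRT complexes, was at 75.0 ± 2.55 TPM in wild type and 79.5 ± 4.51 in R206H.

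Hdac8, a class I enzyme best known for deacetylating the cohesin subunit Smc3, was expressed far below the others of its class. Its level was 5.34, 5.01 and 4.82 TPM in wild type and 7.74, 5.33 and 9.09 TPM in R206H. R206H libraries 1 and 3 were high, and R206H library 2 lay within the wild-type range. The log2 difference was 0.44 (SE 0.183, 95% interval 0.01 to 0.88, limma adjusted p = 0.182). Leaving out single libraries moved it between 0.30 and 0.63.

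The class IIa enzymes Hdac4, Hdac5, Hdac7 and Hdac9 have little deacetylase activity of their own and act as signal-dependent repressors of MEF2 factors, and in growth cartilage Hdac4 holds back chondrocyte hypertrophy. Hdac4 (ENSMUSG00000026313, chromosome 1, 91928779 to 92195699) was at 6.66, 6.59 and 6.67 TPM in wild type and 7.47, 8.16 and 9.43 TPM in R206H. Wild-type values were nearly identical and all R206H values higher, with a log2 difference of 0.29 (SE 0.115, limma adjusted p = 0.173). Of its exon bases, 22.4% overlap a noncoding gene on the opposite strand that is listed at 0 in all libraries. Hdac5 was at 30.8, 30.98 and 32.4 TPM in wild type and 29.6, 34.2 and 43.1 TPM in R206H. The groups overlapped, R206H library 3 was the highest, and the log2 difference was 0.16 with it and 0.02 without it. Hdac7 was the most abundant of the class at 81.1 ± 5.51 TPM in wild type and 82.2 ± 3.65 in R206H, 67.0% and 64.2% of the class's summed TPM. Hdac9, at 1.91 ± 0.402 and 2.15 ± 0.298 TPM, was the least abundant of the 36 members.

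Hdac6, a class IIb enzyme that mainly deacetylates tubulin and cortactin in the cytoplasm (ENSMUSG00000031161, chromosome X, 7930120 to 7947889), was at 22.9, 19.3 and 20.1 TPM in wild type and 24.8, 24.5 and 26.8 TPM in R206H. All R206H libraries lay above all wild-type libraries, at a mean ratio of 1.22. The log2 difference of 0.28 (SE 0.0872, 95% interval 0.07 to 0.48) did not pass with limma (adjusted p = 0.112). With library weights it did (adjusted p = 0.0457), and over all alternatives the adjusted p ran from 0.0457 to 0.292. Hdac10, a polyamine deacetylase of the same class, was at 10.9 ± 1.497 TPM in wild type and 12.4 ± 2.28 in R206H. Hdac11, the class IV enzyme, which removes long fatty acyl groups, had the largest estimate of the 36. It was at 4.68, 3.46 and 2.38 TPM in wild type and 4.62, 4.36 and 7.40 TPM in R206H. The groups overlapped, and the spread between libraries was wide: the log2 difference was 0.52 (SE 0.253, 95% interval -0.08 to 1.12, limma adjusted p = 0.243), and 0.32 to 0.71 when single libraries were left out.

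Among the sirtuins, Sirt6, a chromatin-bound deacetylase of histone H3, was at 27.2, 21.5 and 23.6 TPM in wild type and 28.5, 28.8 and 33.0 TPM in R206H. The R206H libraries were above the wild-type ones, with wild-type library 1 close to the lower ones. Its log2 difference was 0.31 (SE 0.105, 95% interval 0.06 to 0.56, limma adjusted p = 0.127). Sirt1, the nuclear sirtuin that deacetylates p53 and many factors, was at 11.01 ± 1.101 TPM in wild type and 10.6 ± 0.569 in R206H. The tubulin deacetylase Sirt2 was at 45.9 ± 1.09 and 45.2 ± 2.45 TPM, and the nucleolar sirtuin Sirt7 at 16.8 ± 1.02 and 17.2 ± 0.342 TPM. All 3 had 95% intervals within -0.29 to 0.22 on the log2 scale. Sirt7 shares 124 exon bases with Mafg on the same strand (mean 57.45 TPM).

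The mitochondrial sirtuins act on metabolic enzymes and not on histones. Sirt4 was at 6.81, 5.79 and 6.77 TPM in wild type and 8.27, 7.61 and 9.53 TPM in R206H. No library of one genotype entered the range of the other, and the log2 difference was 0.34 (SE 0.124, limma adjusted p = 0.145). Sirt5, which removes succinyl and malonyl groups, was at 10.2, 11.4 and 11.5 TPM in wild type and 11.6, 9.83 and 16.7 TPM in R206H. R206H library 3 stood well above the other 5, and without it the log2 difference of Sirt5 turned from 0.16 to -0.04. Sirt3, the main mitochondrial protein deacetylase, was at 3.79 ± 0.778 and 4.17 ± 1.05 TPM. Its exons share 418 bases with Ric8a and 342 bases with Psmd13 on the opposite strand, at mean levels of 34.1 and 135 TPM, so its low level is uncertain without the strand setting.

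Among the corepressor scaffolds, Ncor1, which binds nuclear receptors and activates Hdac3, was at 43.9 ± 1.29 TPM in wild type and 45.3 ± 0.409 in R206H. Sin3a and Sin3b, the alternative scaffolds of the SIN3 complex, were at 40.2 ± 2.93 and 41.9 ± 2.40 TPM in wild type and at 41.7 ± 3.36 and 41.4 ± 0.308 in R206H. Rcor1, the CoREST scaffold that joins Hdac1 and Hdac2 to the demethylase Kdm1a, was at 41.4 ± 1.68 and 43.0 ± 1.32 TPM. The groups overlapped in all 4, and the estimates ran from -0.02 to 0.05. These 4 genes were expressed at like levels to one another, from 40.2 to 43.9 TPM as wild-type means, while the deacetylases they carry differed widely.

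Brd2 (ENSMUSG00000024335, chromosome 17, 34112023 to 34122634) was at 142, 134 and 142 TPM in wild type and 142, 140 and 140 TPM in R206H. Its groups overlapped, and the log2 difference of 0.01 (95% interval -0.10 to 0.13, limma adjusted p = 0.883) had the smallest standard error of the 36, 0.049. Exons of H2-DMa on the opposite strand (mean 4.52 TPM) cover 4.6% of the exon bases of Brd2. Brd3 was at 49.4, 41.6 and 42.9 TPM in wild type and 42.9, 45.4 and 45.1 TPM in R206H. Wild-type library 1 was the highest and wild-type library 2 the lowest, so the groups overlapped, and the log2 difference was -0.0014 (95% interval -0.19 to 0.18). Without wild-type library 1 it was 0.07. Brd3 was 0.320 ± 0.0244 of Brd2 in wild type and 0.316 ± 0.0121 in R206H, and these groups overlapped too.

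**Figure D3:**
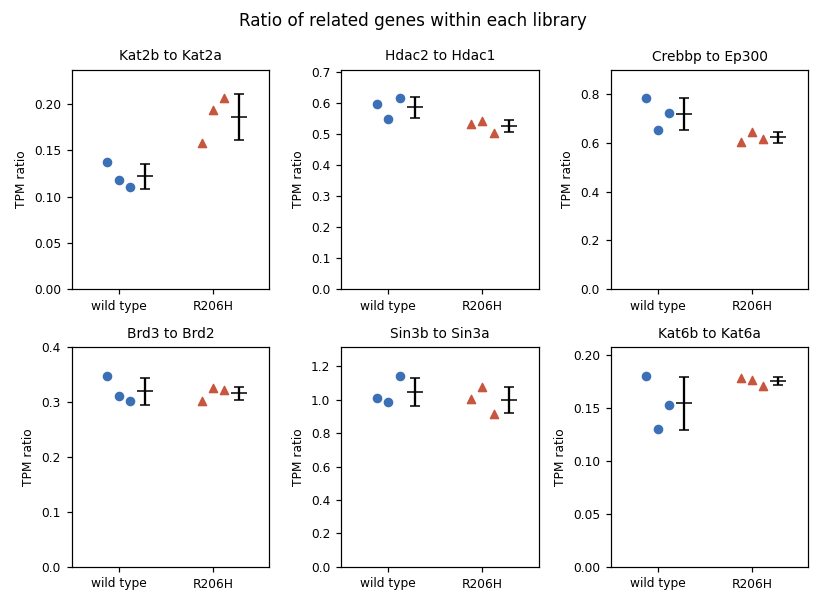
Each panel gives the TPM of one gene divided by that of a related gene in the same library, with circles for wild type, triangles for R206H and the mean and SD (n = 3) as a black bar; axes start at 0. The Kat2b to Kat2a ratio is higher in all R206H libraries. The Hdac2 to Hdac1 and Crebbp to Ep300 ratios are lower, each by a narrow margin, and the other 3 overlap. The pairs were chosen with the values known and have no test.

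Set side by side by role, the writers had a median log2 difference of 0.15, the erasers 0.16, the scaffolds 0.05 and the readers 0.01, beside 0.02 for all genes tested. At an unadjusted limma p under 0.05 there were 3 of 12 writers, 6 of 18 erasers, none of 4 scaffolds and none of 2 readers, beside 26.1% of all genes. All 11 zinc-dependent HDACs had estimates above 0, down to 0.01 for Hdac2 and 0.02 for Hdac7, and both of these were below 0 with median-of-ratios scaling and voom. Hdac2 was also below 0 with quantile normalization and without the 50 highest and mitochondrial genes. Among the 7 sirtuins 5 estimates were above 0. The differences between roles were not tested.

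Summed over its 18 genes, the eraser level was 675, 664 and 670 TPM in wild type and 718, 709 and 748 TPM in R206H. The groups did not overlap, and the ratio of means was 1.08. Most of this sum was from the zinc HDACs, at 550 ± 2.02 TPM in wild type and 596 ± 11.2 in R206H, with Hdac1 as their largest part. The 12 writers summed to 349, 320 and 330 TPM in wild type and 333, 340 and 355 TPM in R206H, and these groups overlapped. Writers made 0.498 ± 0.0179 of the eraser sum in wild type and 0.473 ± 0.0085 in R206H, with the R206H libraries all below the wild-type ones. The lowest wild-type ratio, 0.482 in library 2, and the highest R206H ratio, 0.480 in library 2, were nearly equal. Against the zinc HDACs alone, writers made 0.605 ± 0.0250 in wild type and 0.575 ± 0.0101 in R206H, and these groups overlapped. Within the writers, Kat2a and Kat2b together summed to 90.6 ± 3.39 TPM in wild type and 81.0 ± 3.71 in R206H. The MYST, p300 and CBP, and p160 groups each had a higher mean sum in R206H, with overlapping groups. The readers summed to 184 ± 8.02 TPM in wild type and 185 ± 0.452 in R206H.

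**Figure D4:**
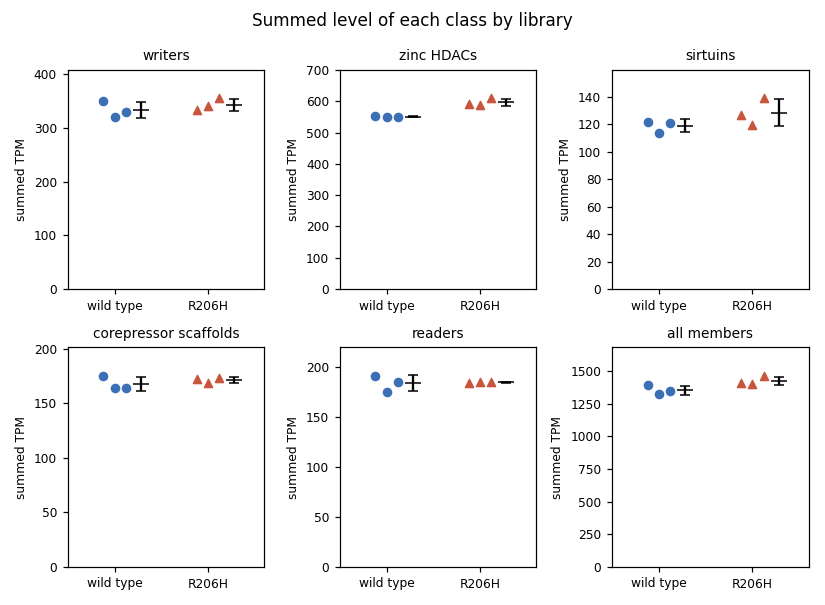
Summed TPM of each class in each library, with circles for wild type, triangles for R206H and the mean and SD (n = 3) as a black bar; every axis starts at 0. The zinc HDAC sum lies at 548 to 552 TPM in wild type and 589 to 609 TPM in R206H, without overlap. The sum of all members does not overlap either, at 1323 to 1390 TPM in wild type and 1403 to 1462 TPM in R206H. The sums of writers, sirtuins, scaffolds and readers overlap between the genotypes.

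The upward estimates were not spread evenly over libraries. R206H library 3 held the highest of the 6 values in 19 of 36 members, or 52.8%, against 30.7% of all genes tested. Wild-type library 2 held the lowest value in 17 members, or 47.2%, against 19.9% of all genes, and it held the highest in none. Without R206H library 3 the members' median was 0.05 in place of 0.11, and 27 of 36 estimates were above 0. Without wild-type library 2 the median was 0.11, with 24 above 0.

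Genes that work with the members were taken from 10 lists of complex subunits, other readers, kinases and suppliers of acetyl-CoA and NAD. Of 145 such genes in the table, 140 were tested, and 1 passed with limma, upward, against 2.04% of all genes. It was Hmg20b, a subunit of the CoREST complex, at 55.9, 55.2 and 55.9 TPM in wild type and 68.6, 68.2 and 77.0 TPM in R206H. The groups did not overlap, and the log2 difference of 0.35 (SE 0.0644) lay just inside the threshold (limma adjusted p = 0.0498, and 0.0188 to 0.167 over the alternatives). The call ended in 12 alternatives: pseudocounts of 0.1 and 5, no filter, median-of-ratios scaling, quantile normalization, no trend, the replicate block, and leaving out wild-type library 1, 2 or 3 or R206H library 2 or 3. Of the partner genes, 37 had an unadjusted p under 0.05, 21 higher and 16 lower, which is 26.4% against 26.1% of all genes. limma voom called 11 of the 140, 5 higher and 6 lower, where it called 8.68% of all genes.

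Subunits of the writers' complexes did not share a direction. Wdr5 and Taf5l, subunits of the ATAC and SAGA complexes of Kat2a and Kat2b, were at 63.7 ± 3.39 and 55.1 ± 1.02 TPM in wild type and 53.1 ± 2.11 and 45.8 ± 3.30 in R206H (limma adjusted p = 0.0731 and 0.077, voom adjusted p = 0.0388 and 0.0472). In that list of 23, none passed with limma, 15 estimates were above 0 and 8 below, with a median of 0.07. At an unadjusted limma p under 0.05 there were 4 higher and 2 lower, against 14.4% and 11.7% of all genes, and the groups did not overlap in 4 genes in each direction, against 17.9% and 15.0%. Ruvbl1 and Ruvbl2, the AAA+ ATPases of the NuA4 complex, were at 162 ± 4.84 and 162 ± 4.27 TPM in wild type and 140 ± 6.09 and 131 ± 9.16 in R206H (limma adjusted p = 0.0797 and 0.059). At an unadjusted limma p under 0.05 there were 2 higher and 3 lower among 16 NuA4 genes, against 14.4% and 11.7% of all genes. None of the 16 passed the threshold. Nor did any of 16 tested subunits of the MOZ, HBO1, MSL and NSL complexes, where Jade1 and Kansl2 had log2 differences of -0.44 and -0.19 and the groups did not overlap in 7 genes, 1 higher and 6 lower, against 32.9% of all genes, 15.0% lower.

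Around the erasers, none of 11 NuRD and none of 12 SIN3 subunits passed with limma. Chd3, a remodelling ATPase of NuRD, was at 166, 145 and 134 TPM in wild type and 200, 213 and 251 TPM in R206H, all higher (log2 difference 0.57, limma adjusted p = 0.0501, voom adjusted p = 0.0214). Gatad2a, another NuRD subunit, had a log2 difference of -0.22. In the NuRD list 4 estimates were above 0 and 7 below, with a median of -0.02. The groups did not overlap in 1 NuRD gene higher and 4 lower, against 17.9% and 15.0% of all genes. The SIN3 subunits Sap18 and Fam60a were at 198 ± 12.9 and 29.6 ± 2.31 TPM in wild type and 157 ± 9.46 and 21.3 ± 3.43 in R206H (limma adjusted p = 0.0593 and 0.0864, voom adjusted p = 0.0281 and 0.0408). In the list of CoREST, NCoR/SMRT and MiDAC subunits, 12 of 14 estimates were above 0, against 53.6% of all genes. The list's median was 0.16, against 0.02. At an unadjusted limma p under 0.05 there were 5, all higher, or 35.7%, against 26.1% of all genes, 14.4% higher. The groups did not overlap in 5, all higher, or 35.7%, against 32.9% of all genes, 17.9% higher.

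None of 20 other bromodomain and YEATS readers passed with limma, and the 2 with the smallest p pointed in opposite directions. Baz1a, a subunit of the ACF remodeller, had a log2 difference of -0.38 (limma adjusted p = 0.0781) and Zmynd8 one of 0.35 (adjusted p = 0.144). Hexim1 and Hexim2, inhibitors of the elongation kinase P-TEFb that BET proteins help recruit, had 0.29 and 0.39, and none of 7 genes of that list passed. Nor did any of 12 class IIa HDAC kinases and MEF2 partners, where Camk2g and Camk1 had 0.18 and 0.17. Among suppliers of acetyl-CoA and NAD the estimates were larger. Acss2, which makes acetyl-CoA from acetate, was at 2.73, 2.60 and 2.37 TPM in wild type and 5.01, 5.41 and 9.66 TPM in R206H, and Naprt, which makes NAD from nicotinic acid, was at 6.06, 7.27 and 6.46 TPM and 11.1, 12.9 and 24.2 TPM. R206H was above wild type in all libraries for both genes, with R206H library 3 the highest. Neither passed with limma (adjusted p = 0.0618 and 0.0706), and Acss2 did with limma voom (adjusted p = 0.028). Of the 9 genes in that list, 5 had an unadjusted limma p under 0.05, 4 higher and 1 lower, against 26.1% of all genes, 14.4% higher and 11.7% lower.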

How the data were processed

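The authors deposited a table of TPM for 49315 Ensembl genes in 6 libraries, each summing to 1000000. Per the labels' protocols, RNA was depleted of ribosomal RNA and sequenced as paired 150 bp reads. The submitters' processing notes name the builds GRCm38 and mm10 and the tools STAR, Trimmomatic, Subread, featureCounts and DESeq2, without versions or roles. Neither gene lengths nor a strand setting is given there.

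Depth was estimated from TPM and GENCODE M21 exon lengths (49056 genes matched): 91.0% to 91.5% of values under 100 reads were whole multiples of 1 read, within 0.05. The 14818 genes that reached TPM 1 in 3 libraries entered a two-sided limma fit (version 3.58.1, R 4.3.3, mean-variance trend) of log2(TPM + 1), with Benjamini-Hochberg adjustment over all of them at 0.05. The script was tested on simulated data. Tables and plots were made with pandas 2.3.3 and matplotlib 3.10.9 (Python 3.11.15).

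The members and lists were chosen with earlier results of these data known. All members are named. Of each partner list, genes past the threshold or else the 2 with the smallest p are named. The ratio pairs, the split of erasers into zinc HDACs and sirtuins, the 1.5-fold band and the counts by library were chosen after values were seen. So were the motifs and promoters shown, and Rnaseh2c, Ric8a, Psmd13, H2-DMa, Sulf2 and Mafg. Alternatives were other pseudocounts, filters and scalings, no trend, library weights, a replicate block and leaving out each library, and voom on rebuilt reads was added after seeing the data.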

Additional observations from a re-analysis of the deposited data

How the results depend on the processing

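With limma, 303 genes passed over all genes tested. The count was 129 with a pseudocount of 0.1, 2 with no filter, 587 with a filter of TPM 5, 200 with quantile normalization, 27 with no trend, 1906 with library weights, 1284 with voom on rebuilt reads and 1787 at an adjusted p of 0.10. Leaving out single libraries gave 0 to 729: 4 without wild-type library 2, 1 without wild-type library 3, 729 without R206H library 1 and 0 without R206H library 2 or 3. Of the members, 0 passed with limma, 2 with library weights, 1 with voom and 1 at 0.10. An unadjusted limma p under 0.05 was found for 9 members, and for 2 to 10 when single libraries were left out. Over all genes that share was 26.1%, and 17.4% to 27.5% when single libraries were left out. Of the partner genes, 1 passed, against 0 with a pseudocount of 0.1 or 5, no filter, quantile normalization or no trend, 4 with a filter of TPM 5, 20 with library weights, 11 with voom and 0 to 7 when single libraries were left out. The members' median of 0.11 was 0.047 to 0.129 when single libraries were left out, lowest without R206H library 3, and the erasers' median of 0.16 was 0.077 with library weights. Acvr1 passed with a filter of TPM 5 (log2 difference 0.35, limma adjusted p = 0.0417), library weights (0.40, adjusted p = 0.0169) and voom (0.33, adjusted p = 0.0311). The cause of these shifts was not tested.

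Same-numbered libraries showed little shared deviation from their group means, with correlations of 0.018, 0.060 and -0.028. These values cannot tell whether same-numbered libraries were prepared together. With the replicate block 0 genes passed in all, 0 among the partner genes. In that fit 5 members had an unadjusted limma p under 0.05, beside 22.3% of all genes.

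The direction of 15 uncalled members, all with estimates near 0 or resting on 1 library, reversed in some setting, in log2 units. With median-of-ratios scaling Kat7 was at -0.0047, Hdac2 at -0.020, Hdac7 at -0.0036 and Brd2 at -0.011. With quantile normalization Kat7 was at -0.0093, Kat8 at -0.029, Ncoa3 at -0.022, Hdac2 at -0.011, Sirt7 at -0.014 and Brd2 at -0.0056. With voom Kat7 was at -0.010, Hdac2 at -0.022, Hdac7 at -0.0043 and Brd2 at -0.013. With library weights Crebbp was at 0.043, Sirt5 at -0.021 and Brd3 at 0.044, and without the 50 highest and mitochondrial genes Hdac2 was at -0.0020. Leaving out single libraries gave Kat7 -0.031 to 0.067, Kat8 -0.054 to 0.080, Crebbp -0.093 to 0.073, Ncoa3 -0.018 to 0.105, Hdac2 -0.026 to 0.034, Hdac7 -0.035 to 0.055, Sirt1 -0.118 to 0.012, Sirt2 -0.058 to 0.019, Sirt7 -0.012 to 0.071, Sirt3 -0.057 to 0.235, Sirt5 -0.040 to 0.316, Sin3a -0.0062 to 0.108, Sin3b -0.062 to 0.016, Brd2 -0.015 to 0.028 and Brd3 -0.048 to 0.072. The other 21 members kept their direction in every setting.

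Depth limits the weakest members most: Hdac11 rested on 57 to 162 reads a library and Sirt4 on 77 to 130.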
